A study of Homo sapiens with 6 samples.

Results

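Glycolysis and the genes that low oxygen induces were followed in HaCaT, a human keratinocyte line immortalized in culture, with and without histamine, an amine stored in mast cells. The set holds 40 genes, chosen by name, and every probe whose annotated symbol is a member was taken. Of the 40, 38 had a probe, with 70 probes of the 47322 on the array, and 35 had at least 1 probe that passed the detection filter, with 52 kept probes of 17871. SLC16A3, the lactate exporter MCT4, and CA9, carbonic anhydrase IX, had no probe under these symbols and were not analysed here. PDK1, EGLN3 and MXI1 had probes but were left out by the filter. RNA from 3 control samples and from 3 samples kept with histamine at 1 µg/ml for 24 h was hybridized to Illumina HT-12 bead arrays, with 1 sample on each array. Both groups were cultured in DMEM that held 1.5 mM calcium and 10% serum. The labels speak of a triplicate without saying that cultures were separate, so p-values here measure the spread between samples and may reflect technical spread. The control names follow 1 numbered series and the histamine names another, so that any batch tied to the series and the treatment cannot be told apart. The treatment text of the labels is identical for all 6 samples, and the groups were read from the agent label.

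Glycolysis splits glucose to pyruvate in the cytosol. Keratinocytes rely on it strongly and turn much of the pyruvate into lactate. The hypoxia-inducible factors, HIF, couple it to oxygen. While oxygen is present, prolyl hydroxylases of the EGLN family mark the HIF alpha subunits, the VHL ligase binds the mark, and the subunit is degraded. Without oxygen the alpha subunit (HIF1A or EPAS1) persists, pairs with ARNT, and switches on genes of glucose uptake, glycolysis, blood vessel growth, mitochondrial removal and collagen hydroxylation. The pair binds short DNA cores that read ACGTG or GCGTG.

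The promoters of BNIP3, ANKRD37, PGK1 and ENO2, which fell with histamine, and of LDHB, which rose, are shown as examples with many, few or none of the ACGTG cores, and were chosen after their values and motifs were seen. Each runs from 250 bases before to 50 bases after the annotated start, 5′ to 3′ on the gene's strand, from RefSeq on GRCh38.p14. Capitals mark ACGTG and GCGTG on either strand; where ACGTG on both strands overlaps, the capitals read CACGTG, and on the opposite strand the motifs read CACGT and CACGC. The windows lie at chr10:131981874-131982173 (minus strand) for BNIP3, chr4:185396591-185396890 (plus) for ANKRD37, chrX:78103998-78104297 (plus) for PGK1, chr12:6914330-6914629 (plus) for ENO2 and chr12:21657793-21658092 (minus) for LDHB.
BNIP3: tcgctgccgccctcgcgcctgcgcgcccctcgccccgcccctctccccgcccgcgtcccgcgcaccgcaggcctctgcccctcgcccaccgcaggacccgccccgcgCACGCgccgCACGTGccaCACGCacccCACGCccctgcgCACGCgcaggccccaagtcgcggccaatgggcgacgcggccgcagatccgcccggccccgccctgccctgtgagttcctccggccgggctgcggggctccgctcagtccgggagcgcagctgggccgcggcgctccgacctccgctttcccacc
ANKRD37: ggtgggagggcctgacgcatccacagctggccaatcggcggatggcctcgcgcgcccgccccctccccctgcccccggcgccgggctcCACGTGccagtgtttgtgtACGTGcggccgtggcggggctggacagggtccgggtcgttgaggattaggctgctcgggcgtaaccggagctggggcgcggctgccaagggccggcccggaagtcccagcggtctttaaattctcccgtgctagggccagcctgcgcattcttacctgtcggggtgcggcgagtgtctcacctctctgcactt
PGK1: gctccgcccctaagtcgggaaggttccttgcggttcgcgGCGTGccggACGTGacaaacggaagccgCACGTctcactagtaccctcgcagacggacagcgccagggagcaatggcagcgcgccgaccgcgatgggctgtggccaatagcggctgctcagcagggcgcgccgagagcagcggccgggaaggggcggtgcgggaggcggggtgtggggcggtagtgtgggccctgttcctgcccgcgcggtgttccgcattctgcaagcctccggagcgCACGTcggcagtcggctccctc
ENO2: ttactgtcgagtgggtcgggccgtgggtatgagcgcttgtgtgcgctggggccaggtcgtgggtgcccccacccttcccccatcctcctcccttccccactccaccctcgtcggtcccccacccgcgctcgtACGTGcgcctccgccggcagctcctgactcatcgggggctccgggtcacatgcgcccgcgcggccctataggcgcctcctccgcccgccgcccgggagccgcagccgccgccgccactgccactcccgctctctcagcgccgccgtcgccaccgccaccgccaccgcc
LDHB: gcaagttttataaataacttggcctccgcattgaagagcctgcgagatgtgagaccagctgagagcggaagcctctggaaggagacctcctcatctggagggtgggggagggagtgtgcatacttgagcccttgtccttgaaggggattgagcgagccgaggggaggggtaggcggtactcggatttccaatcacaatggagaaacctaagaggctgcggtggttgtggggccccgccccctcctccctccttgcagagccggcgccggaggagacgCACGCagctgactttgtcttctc
The BNIP3 window held 2 ACGTG and 4 GCGTG, counted on both strands, and that of ANKRD37 3 ACGTG. PGK1 had 3 ACGTG and 1 GCGTG, ENO2 had 1 ACGTG, and LDHB had no ACGTG and 1 GCGTG. Of the members that fell and are not shown, PFKL had 1 GCGTG and no ACGTG, and PGAM1 had neither motif. RefSeq windows matched 34 of the 40 members by symbol, all but SLC2A3, PFKFB2, VEGFA, NDRG1, BNIP3L and HILPDA. ACGTG stood in at least 1 window of 20 of these 34 genes (58.8%), against 24.9% of the 27305 genes with a window. For GCGTG it was 21 of 34 (61.8%) against 40.6%. Most members are textbook HIF targets, so these shares depend on how they were chosen. They also depend on the number of windows per gene, which was not matched. HK1 and PFKM, for example, had several windows. Over all 35116 windows, counted singly, the shares were 21.4% for ACGTG and 36.5% for GCGTG. Within the set, ACGTG stood in 6 of the 10 genes with a window that fell and in 10 of the 18 that did not pass.

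Glycolytic and hypoxia-induced genes that changed were mostly lower with histamine. Of the 35 members tested, 12 fell and 1 rose, while 22 missed the threshold, an adjusted p under 0.05 in a limma fit across 10406 genes. Each gene was counted on its brightest kept probe. These are bulk samples, in which fewer cells of a type and less RNA per cell cannot be told apart. Among all genes tested 21.4% changed, 12.1% downward and 9.29% upward. The difference, histamine minus control on the log2 scale, was below 0 for 26 members, and its median was -0.27 against -0.08 over all genes. Of the 17 glycolytic enzymes, all tested, 6 fell and 1 rose, with a median of -0.28. Of the 14 other HIF targets, 11 were tested, 5 fell and none rose on the brightest probe, with a median of -0.34. BNIP3L is among the 5, although its dimmer kept probe rose. The difference between the roles was not tested, and the second median depended on the processing. It was -0.17 in the processed value table and -0.051 on the mean of each gene's probes, where that of the enzymes was -0.33 and -0.27. Relative to the median of all genes, the other targets then stood at -0.12 and 0.009, and the enzymes at -0.29 and -0.21. The groups did not overlap and histamine was the lower for 8 of the 17 enzymes and 3 of the 11 other targets, against 22.9% of all genes. Among the 1041 brightest genes 17.9% fell and the median was -0.10.

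These counts turned on the control arrays. Without control replicate 1 7 members passed, or were called, in the fit (14.0% of all genes) and without control replicate 2 5 (11.7%), while without control replicate 3 20 (24.4%). Leaving out histamine replicate 1, 2 or 3 left 9, 11 and 11 members called (15.4%, 15.5% and 14.7% of all genes). PGAM1, ALDOA, SLC2A1, ADM and BNIP3 fell in each fit that left out 1 array. Without the intensity trend in the variance model, ALDOA, ENO2 and ADM were the members that still fell, KDM3A was called higher (0.48, adjusted p = 0.0495), and no other member passed.

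**Figure D1:**
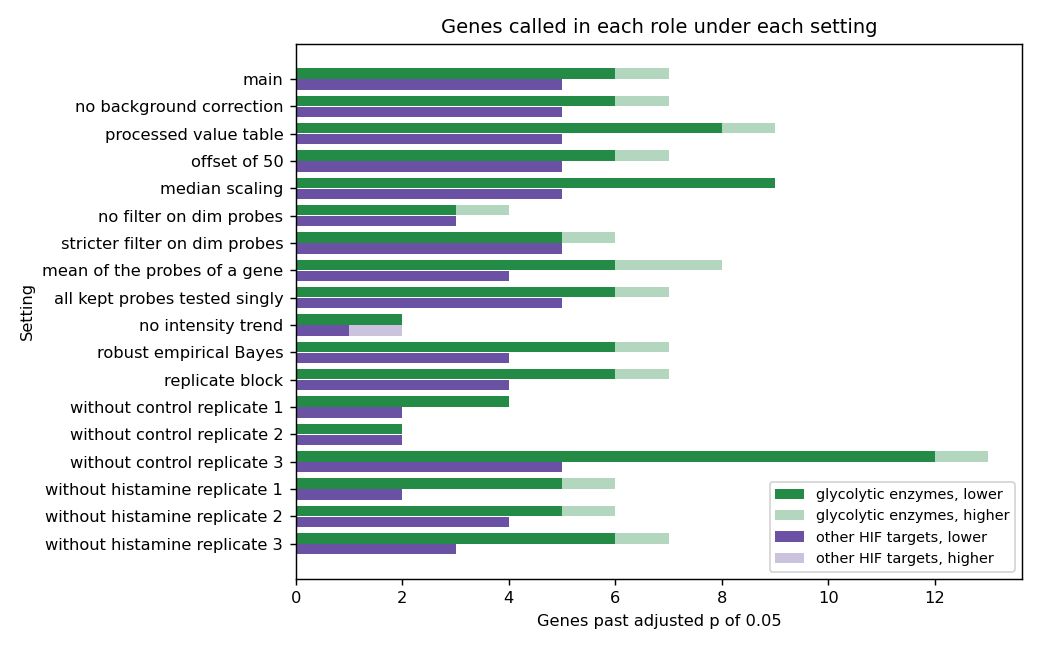
Number of genes past an adjusted p of 0.05 among the glycolytic enzymes (green) and the other HIF targets (purple), dark for lower and pale for higher with histamine. Shown are the fit reported, with 17 enzymes and 11 other targets tested, and the 17 alternatives. With no filter on dim probes EGLN3 and MXI1 join the other targets, and with the stricter filter ENO2 is not tested. The enzymes range from 2 to 13 and the other targets from 2 to 5 in the fits that leave out 1 array.

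**Figure D2:**
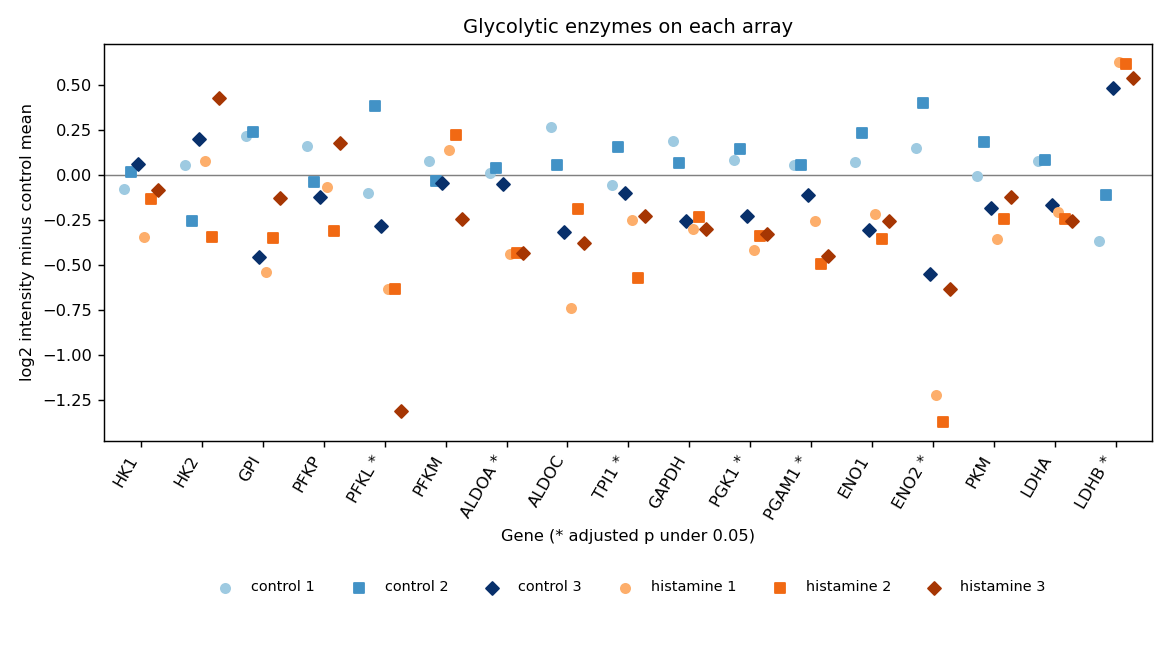
Normalized log2 intensity of the 17 glycolytic enzymes on each of the 6 arrays, minus the mean of the 3 control arrays, in pathway order from HK1 to LDHB. Circles, squares and diamonds stand for replicates 1, 2 and 3, blue for control and orange for histamine, and an asterisk marks an adjusted p under 0.05. The dark blue diamond of control replicate 3 lies below the other controls for 14 of the enzymes and close to the histamine points for many of them, while LDHB runs the other way.

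The first steps trap glucose and commit it. HK1 and HK2, the hexokinases that phosphorylate glucose, did not pass on their brightest probes (HK1 -0.19 ± 0.10, adjusted p = 0.212; HK2 0.05 ± 0.19, adjusted p = 0.868; all errors on differences are SE, n = 3 per group). GPI, which turns glucose 6-phosphate into fructose 6-phosphate, read 11.79, 11.81 and 11.12 in the controls and 11.03, 11.22 and 11.44 with histamine. Control replicate 3 stood inside the histamine range, and GPI did not pass (-0.34 ± 0.15, adjusted p = 0.128). Phosphofructokinase, the committed step, has 3 subunit genes. PFKL, the liver form, read 8.15, 8.63 and 7.96 in the controls and 7.61, 7.61 and 6.94 with histamine. All histamine arrays lay below all controls, histamine replicate 3 lowest, and PFKL fell 1.81-fold (-0.86 ± 0.21, adjusted p = 0.00846). PFKP, the platelet form, and PFKM, the muscle form, gave -0.07 ± 0.12 and 0.04 ± 0.13 with overlapping groups (adjusted p = 0.728 and 0.86). The PFKL call was lost without control replicate 2.

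The middle of the pathway splits and oxidizes the sugar. ALDOA, the main aldolase, read 13.66, 13.69 and 13.60 in the controls and 13.21 on each histamine array. The groups were narrow and well apart, and ALDOA fell 1.35-fold (-0.44 ± 0.09, adjusted p = 0.00189). Its other kept probe gave -0.36 ± 0.14 (adjusted p = 0.0669 over all kept probes). ALDOC, the aldolase of brain, gave -0.43 ± 0.16 and did not pass (adjusted p = 0.0664). TPI1, which interconverts the triose phosphates, read 13.76, 13.97 and 13.72 in the controls and 13.57, 13.25 and 13.59 with histamine. It fell 1.27-fold (-0.35 ± 0.11, adjusted p = 0.0268), and its other probe fell further (-0.61 ± 0.11, adjusted p = 9.18e-04 over all kept probes). The TPI1 call on the brightest probe was lost without control replicate 2 or histamine replicate 2, but that on the other probe held in all 13 alternatives of the fit over probes.

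GAPDH, which oxidizes glyceraldehyde 3-phosphate and often serves as a reference gene, did not pass. It read 14.73, 14.60 and 14.28 in the controls and 14.24, 14.31 and 14.24 with histamine. Control replicate 3 read like the histamine arrays, and the difference was -0.28 ± 0.10 (adjusted p = 0.0658). Its other probes gave -0.25 and 0.15, neither past the test. PGK1, the first step that yields ATP, read 13.19, 13.25 and 12.88 in the controls and 12.69, 12.77 and 12.78 with histamine. It fell 1.28-fold (-0.36 ± 0.10, adjusted p = 0.0198), with control replicate 3 nearest the histamine arrays. The other PGK1 probe showed -0.02 ± 0.11 (adjusted p = 0.932), and the PGK1 call did not survive the removal of control replicate 1 or 2 or of histamine replicate 1 or 2.

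PGAM1, phosphoglycerate mutase, fell on both its probes. The brighter read 12.90, 12.90 and 12.73 in the controls and 12.59, 12.35 and 12.39 with histamine. It fell 1.32-fold (-0.40 ± 0.10, adjusted p = 0.00827), and the other, with overlapping groups, fell by 0.39 ± 0.12 (adjusted p = 0.0325 over all kept probes). This second call held in 8 of 13 alternatives and failed when control replicate 1 or 2 or histamine replicate 2 or 3 was omitted. PGAM1 has near-identical copies, whose transcripts its probes may read. The probe of 1 such copy, PGAM4, went the other way and rose by 0.34 ± 0.10 (adjusted p = 0.0189), with the groups apart, so the PGAM1 values are uncertain. Among enolases, ENO1, the ubiquitous form, gave -0.27 ± 0.11 and did not pass (adjusted p = 0.0951). ENO2, the neuronal form and a strong HIF target, read 7.06, 7.31 and 6.36 in the controls and 5.69, 5.54 and 6.28 with histamine. It fell 2.11-fold (-1.08 ± 0.28, adjusted p = 0.0104), and control replicate 3 stood just above histamine replicate 3. The size depended on the background treatment. ENO2 gave -0.50 on uncorrected signals and -0.36 in the processed value table, still past the test, and PFKL gave -0.59 and -0.49. The ENO2 call was lost without control replicate 1 or 2, and also without the detection filter.

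The last steps make pyruvate and lactate. PKM, pyruvate kinase, did not pass on its brightest probe (-0.24 ± 0.11, adjusted p = 0.124), but its other 2 probes fell, by 0.34 ± 0.12 and by 0.45 ± 0.11 (adjusted p = 0.042 and 0.00821 over all kept probes). These calls held in 6 and 11 of the 13 alternatives. The lactate dehydrogenase subunits parted. LDHA, the form that favours lactate, read 14.77, 14.77 and 14.52 in the controls and 14.48, 14.44 and 14.43 with histamine. The groups did not overlap, yet the difference of -0.23 ± 0.09 did not pass (adjusted p = 0.0761). A second bright LDHA probe fell by 0.46 ± 0.10 (adjusted p = 0.0035 over all kept probes), and a dim probe gave 0.08 ± 0.24. LDHB, the form that favours pyruvate, read 11.40, 11.66 and 12.25 in the controls and 12.40, 12.39 and 12.31 with histamine. On the brightest probes it was the 1 member that rose, 1.51-fold (0.59 ± 0.15, adjusted p = 0.00983). Control replicate 3 lay just under the histamine arrays. With arrays scaled to a common median in place of quantile normalization, LDHB gave 0.39 and no longer passed (adjusted p = 0.0529), and its call was also lost without control replicate 1 or 2.

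Of the genes of transport and regulation around the pathway, 1 of the 5 tested fell, against 12.1% of all genes. SLC2A1, the glucose transporter GLUT1, read 11.16, 10.85 and 11.35 in the controls and 10.53, 10.68 and 10.71 with histamine. It fell 1.40-fold (-0.48 ± 0.12, adjusted p = 0.0111), and here control replicate 3 was the highest array, as it also was for HK1. SLC2A3, the transporter GLUT3, gave -0.09 ± 0.29 (adjusted p = 0.853). PFKFB2, PFKFB3 and PFKFB4, which set the level of the phosphofructokinase activator fructose 2,6-bisphosphate, gave -0.20, -0.28 and -0.25, and none passed (adjusted p = 0.587, 0.137 and 0.497). PDK1, a kinase that inhibits pyruvate dehydrogenase, was detected on no array.

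**Figure D3:**
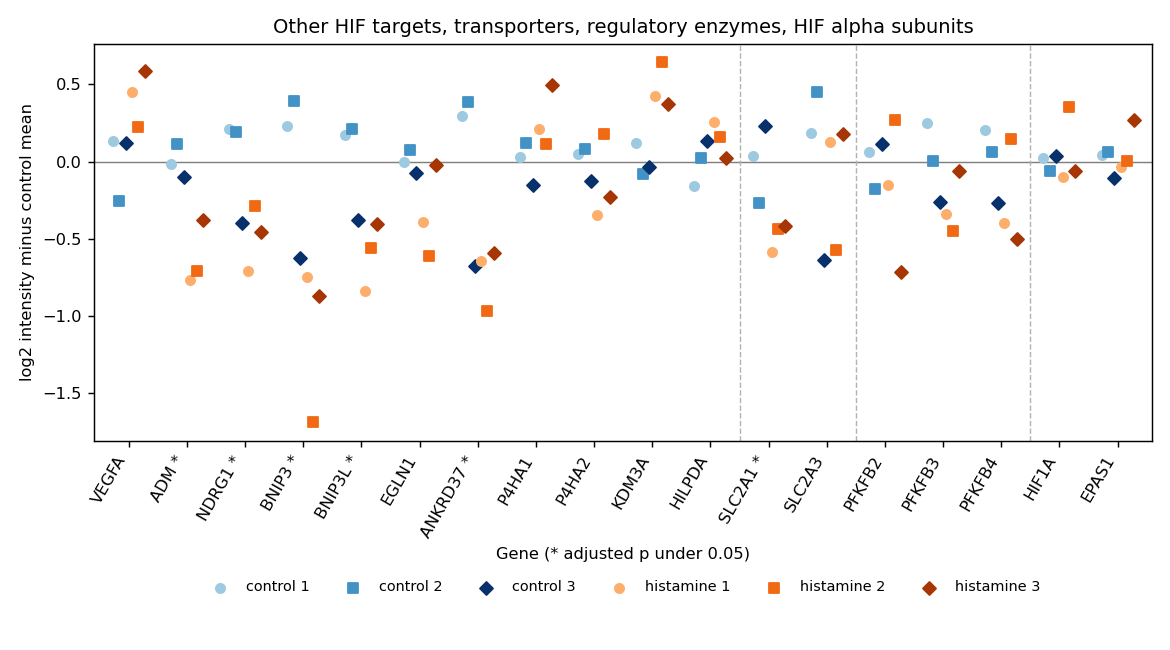
Normalized log2 intensity on each of the 6 arrays, minus the control mean, of 11 other HIF targets, 2 transporters, 3 regulatory enzymes and 2 HIF alpha subunits, separated by dashed lines. Circles, squares and diamonds stand for replicates 1, 2 and 3, blue for control and orange for histamine, and an asterisk marks an adjusted p under 0.05. On their brightest probes ADM, NDRG1, BNIP3, BNIP3L and ANKRD37 lie lower with histamine, and VEGFA and KDM3A higher without passing the test. The dimmer BNIP3L probe, which rose, is not shown.

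Among the other HIF targets, BNIP3 had the largest decrease. BNIP3, a mitochondrial receptor for autophagy, read 10.54, 10.69 and 9.68 in the controls and 9.56, 8.61 and 9.44 with histamine. It fell 2.14-fold (-1.10 ± 0.23, adjusted p = 0.00316), with control replicate 3 just above the histamine arrays. The call was lost in a fit that gives outlying variances less weight (adjusted p = 0.0881). BNIP3L, its relative NIX, read 9.48, 9.51 and 8.92 in the controls and 8.46, 8.75 and 8.90 with histamine on its brighter probe, and fell 1.51-fold (-0.60 ± 0.17, adjusted p = 0.0172). Its dimmer probe went the other way. It read 5.18, 5.64 and 6.47 in the controls and 6.59, 6.85 and 7.05 with histamine, and rose by 1.06 ± 0.29 (adjusted p = 0.0144 over all kept probes). The mean of both probes gave 0.23 and no call, so no direction is given for BNIP3L as a gene. The call on the brighter probe was lost without control replicate 1 or 2 or histamine replicate 1, and that on the dimmer held in 9 of 13 alternatives.

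ADM, the vessel-dilating peptide adrenomedullin, read 11.67, 11.80 and 11.58 in the controls and 10.92, 10.98 and 11.31 with histamine. It fell 1.53-fold (-0.62 ± 0.12, adjusted p = 0.00125), and it passed under each of the 17 alternatives, as did ALDOA. NDRG1, a stress-responsive gene of the differentiating epidermis, read 10.53, 10.52 and 9.92 in the controls and 9.61, 10.04 and 9.87 with histamine. It fell 1.40-fold (-0.49 ± 0.16, adjusted p = 0.0338), although control replicate 3 lay within the histamine range. ANKRD37, an ankyrin-repeat protein, read 7.74, 7.83 and 6.76 in the controls and 6.80, 6.48 and 6.85 with histamine. Control replicate 3 again lay among the histamine arrays, and the fall of 1.66-fold just passed (-0.74 ± 0.25, adjusted p = 0.0452). The calls of NDRG1 and ANKRD37 were each lost when control replicate 1 or 2 or histamine replicate 1 was left out, that of NDRG1 also without histamine replicate 3, and that of ANKRD37 also without histamine replicate 2 or 3. ANKRD37 gave -0.44 on uncorrected signals and -0.34 in the processed value table. With the replicate number as a block it no longer passed (adjusted p = 0.0559).

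Not all HIF targets were lower. VEGFA, the vessel growth factor, read 6.61, 6.22 and 6.60 in the controls and 6.93, 6.70 and 7.06 with histamine. The groups did not overlap, but the difference of 0.42 ± 0.22 did not pass (adjusted p = 0.178). KDM3A, a histone demethylase, gave 0.48 ± 0.19 (adjusted p = 0.0727), again with histamine above all controls. P4HA1 and P4HA2, collagen prolyl hydroxylases, gave 0.27 ± 0.14 and -0.13 ± 0.15. HILPDA, a lipid droplet protein, gave 0.15 ± 0.15. EGLN1, the main oxygen-sensing hydroxylase and itself a HIF target, gave -0.34 ± 0.19. None of these passed (adjusted p = 0.188, 0.564, 0.508 and 0.22). EGLN3 was detected on no array, and MXI1, a MYC antagonist, was detected on at most 1 array of each group by any of its 4 probes.

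Neither HIF alpha subunit passed on its brightest probe. EPAS1, which encodes HIF-2 alpha, gave 0.08 ± 0.15 (adjusted p = 0.738). HIF1A gave different answers by probe. Its brightest read 8.64, 8.56 and 8.66 in the controls and 8.52, 8.97 and 8.56 with histamine, a difference of 0.06 ± 0.15 (adjusted p = 0.799). A second read 6.89, 7.60 and 7.88 in the controls and 8.94, 9.13 and 9.21 with histamine. It rose 3.10-fold (1.63 ± 0.21, adjusted p = 2.16e-05 over all kept probes), in all 13 alternatives of that fit. The other HIF1A probe rose by 0.71 ± 0.19 (adjusted p = 0.0141), a call lost with median scaling and when control replicate 1 or histamine replicate 3 was left out. The second probe is annotated to a different transcript record of HIF1A than the brightest, while the other is annotated to the same record. HIF1A activity is set mainly by protein stability, which arrays do not measure.

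**Figure D4:**
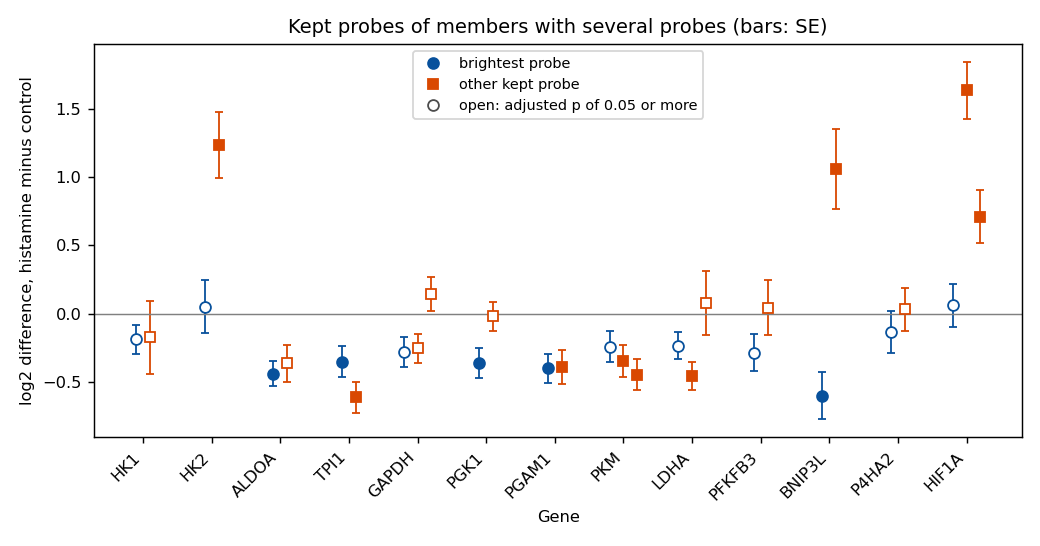
The log2 difference, histamine minus control, of each kept probe for the 13 members with more than 1 kept probe, with bars of 1 SE from the fit over all kept probes. Blue circles are the brightest probe of a gene, orange squares its others, and filled symbols have an adjusted p under 0.05. The probes of HK2, BNIP3L and HIF1A differ most, with ranges of 1.18, 1.66 and 1.57.

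Of the 13 members with several kept probes, 5 had differences of both signs, namely GAPDH, LDHA, PFKFB3, BNIP3L and P4HA2. BNIP3L alone had probes called in both directions. The share with both signs over the 2702 genes with several kept probes is not given here, so no excess in the set is claimed. Of the 52 kept probes, 17 fell and 5 rose, while over all kept probes 10.9% fell and 11.0% rose. The second HK2 probe read 6.50, 7.43 and 7.44 in the controls and 8.76, 8.09 and 8.23 with histamine. It rose 2.35-fold (1.23 ± 0.24, adjusted p = 0.00135), in all 13 alternatives, while the brighter HK2 probe moved by 0.05. On the mean of their probes HK2 and HIF1A were called higher (0.64 and 0.80, adjusted p = 0.0219 and 0.00276), and PGK1 and BNIP3L were not called.

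Control replicate 3 lay nearer to the histamine mean than to the other controls for most members called without it. Place was measured from 0, the mean of the other controls, to 1, the histamine mean, over genes called in the fit that left that array out, so the array did not choose them. Its median place was 0.75 for the 20 members called without it against 0.37 for the 2544 genes so called. For the 13 enzymes called it was 0.78, from 0.17 for ALDOA to 1.20 for GPI, and for the 5 other HIF targets 0.72, from 0.23 for ADM to 0.95 for ANKRD37. Of the 20, SLC2A1 alone had a place below 0, at -0.96. No other array had so high a median: the member medians were -0.04 and -0.22 for control replicates 1 and 2 and -0.02, 0.00396 and 0.19 for histamine replicates 1, 2 and 3. These rest on 5 to 11 members each.

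**Figure D5:**
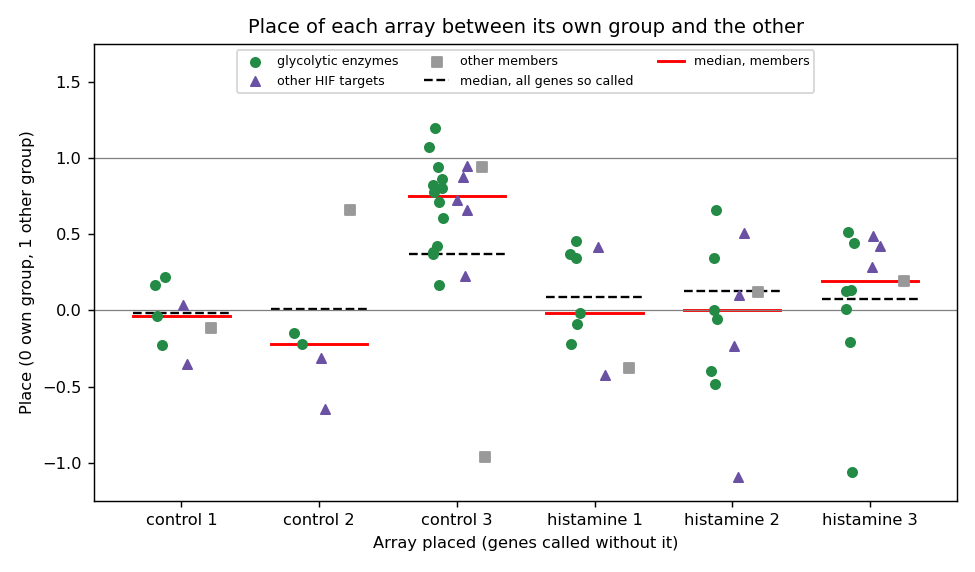
Place of each array between the mean of the other arrays of its own group (0) and the mean of the other group (1), for members called in the fit without that array. Green circles are glycolytic enzymes, purple triangles other HIF targets and grey squares other members; the red line is their median and the dashed line that of all genes so called. Control replicate 3 has a member median of 0.75, against 0.37 over all genes.

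Counted another way, control replicate 3 was the lowest of the 3 controls for 14 of 17 enzymes and 8 of 11 other HIF targets, against 39.9% of all genes. The median of control replicate 3 minus the mean of the other controls was -0.25 for the enzymes, -0.19 for the other targets and -0.03 for all genes. Histamine lay below control replicate 3 by a median of -0.12 for the enzymes and -0.06 for the other targets, against -0.05 for all genes. The 13 members called with all arrays were also called without control replicate 3. The 7 called in addition were GPI, ALDOC, GAPDH, ENO1, PKM, LDHA and PFKFB3. All 7 were then lower with histamine, GAPDH by -0.40 and ENO1 by -0.43 (adjusted p = 0.00319 and 0.00274), LDHA by -0.32 (adjusted p = 0.0121). For these genes the control group spanned much of the distance to the histamine group. What set control replicate 3 apart was not tested.

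Neighbouring pathways gave no uniform change. Over all genes tested, 12.1% fell and 9.29% rose. Of the pentose phosphate pathway, 6 of 7 genes were tested and none passed in the limma fit. RPIA (0.33 ± 0.14), TALDO1 (-0.28 ± 0.10) and PGLS (-0.20 ± 0.13), its isomerase, transaldolase and lactonase, differed most. Of the genes of pyruvate entry into mitochondria and its use there, 10 of 13 were tested, 2 rose and none fell. PDP1, the phosphatase that activates pyruvate dehydrogenase, rose 2.26-fold (1.18 ± 0.22, adjusted p = 0.00117), and PDHA1, a subunit of that enzyme, rose by 0.53 ± 0.14 (adjusted p = 0.0142). For PDHA1 control replicate 3 read 11.58, inside the histamine range of 11.57 to 11.79, and the other controls 10.94 and 10.93. The PDHA1 call did not hold with median scaling or without the intensity trend. It was also lost in the fits that omit control replicate 1, control replicate 2 or histamine replicate 2. PDK3, a kinase that inhibits the enzyme, gave -0.60 ± 0.22 and did not pass. Of glycogen metabolism, 9 of 11 genes were tested, GBE1, the branching enzyme, fell by 0.55 ± 0.17 (adjusted p = 0.029), and none rose. The GBE1 call was lost without control replicate 1 or 2 or histamine replicate 2, and also without the detection filter. PPP1R3C (0.72 ± 0.31) and GYS1 (-0.46 ± 0.28), a glycogen-targeting subunit of protein phosphatase and glycogen synthase, did not pass.

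Further HIF targets were split. Of 32 listed, 22 were tested, 5 rose, 4 fell and 13 did not pass, with a median of -0.15. Over all genes 9.29% rose and 12.1% fell, with a median of -0.08. HMOX1, heme oxygenase, rose 2.83-fold (1.50 ± 0.25, adjusted p = 5.5e-04), and FAM162A, a mitochondrial HIF target, rose 2.81-fold (1.49 ± 0.19, adjusted p = 3.1e-05). The HMOX1 probe was dim and detected on 2 control arrays. Over the 16 alternatives that tested HMOX1 its difference ran from 0.47 to 1.62, each time past the threshold, so its size depended on the processing. WSB1, a ubiquitin ligase subunit, fell by 1.07 ± 0.12 on its brightest probe and rose by 0.71 on its other. Of the oxygen-sensing machinery, 12 of 16 genes were tested, 4 fell and none rose, against 12.1% and 9.29% of all genes. EP300 and CREBBP, the acetyltransferases that HIF recruits, fell by 1.56 ± 0.22 and by 0.54 ± 0.12 (adjusted p = 1.21e-04 and 0.00521). Both calls held in every alternative that tested them. The EP300 difference ran from -1.70 to -0.50 and that of CREBBP from -0.75 to -0.44, so the gap between them depended on the processing. VHL, which marks HIF alpha for destruction, fell by 0.64 ± 0.16 on its brightest probe (adjusted p = 0.00759), a call lost without control replicate 2, while another kept probe rose by 0.74 and the last gave -0.15 (adjusted p = 0.00828 and 0.736). GBE1 and GYS1 stand in both the glycogen list and the further HIF targets.

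Other isoforms and transporters, a list of 25 with 10 tested, had 4 that rose and 1 that fell. The shares over all genes were 9.29% and 12.1%. ENO3, the muscle enolase, read 5.97, 5.84 and 6.39 in the controls and 11.18, 6.94 and 7.34 with histamine, so that histamine replicate 1 stood far above the rest. Its difference was 2.42 ± 0.67 (adjusted p = 0.0162). The ENO3 call was lost without control replicate 1 or 2 and in the fit that gives outlying variances less weight. It was also lost in the processed value table, without the detection filter and without the intensity trend. SLC2A12, the glucose transporter GLUT12, rose by 0.87 ± 0.23, and SLC2A8, the transporter GLUT8, fell by 0.71 ± 0.13 (adjusted p = 0.012 and 0.00108). The SLC2A12 call was lost with median scaling, without the detection filter and without control replicate 2.

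Skeletal muscle transcripts stood higher on the histamine arrays, and muscle is rich in glycolytic enzymes. Of the 17 muscle markers 16 had a probe. ACTA1, CKM, MYH7 and MYL1 were detected on all 3 histamine arrays and on no control array, so they passed the detection filter through the histamine group alone and had to differ. MB and ENO3 were the other markers tested, detected on 2 and 3 control arrays. The summed level of the 16 was 472 to 500 in the controls and 37413, 1565 and 1508 in histamine replicates 1, 2 and 3, in normalized intensity units. The 10 that were not tested were detected on no control array. Without histamine replicate 1, PFKM gave -0.01, ALDOA -0.43 (adjusted p = 0.00887) and LDHB 0.58 (adjusted p = 0.0194), and 9 members were called. The part of these transcripts in the other differences was not tested. The 3 hemoglobin genes with a probe were also highest on that array, HBB at 9.02 against 5.11 to 5.70 elsewhere. HBB and HBA2 were tested and did not pass, and HBA1 was not tested. Of the 7 erythrocyte markers listed, 6 had a probe. AHSP was tested and gave -0.07 (adjusted p = 0.89), while ALAS2 and SLC4A1 were detected on no array. ALAS2 read 4.69 on histamine replicate 1, against 4.67 to 5.44 in the controls. Keratinocyte markers were present throughout. Of the 10 listed 7 had a probe, and all 7 were detected on every array. Their summed level was 22347 to 23687 in the controls and 24222 to 29714 with histamine. Bright markers such as KRT14 weigh most in that sum. The median difference of the 7 was 0.03, with 4 above 0 and 3 below, and 2 were called higher and none lower. Of the markers with a probe, 6 of fibroblasts, 3 of melanocytes, 4 of immune cells and 4 of endothelium, CD14 alone passed the detection filter, at 0.16 and an adjusted p of 0.474. Detected on no array were 1 of the 6 fibroblast markers (PDGFRB), 1 of the 3 melanocyte markers (TYR), 2 of the 4 immune markers (PTPRC and CD3E) and 3 of the 4 endothelial markers (PECAM1, CDH5 and KDR). COL1A1, a fibroblast collagen, was detected on 2 control arrays, and COL3A1, LUM, COL1A2, DCN, MLANA, PMEL, LYZ and VWF on 1 array each. The summed levels in controls and with histamine were 196 to 207 and 194 to 232 for fibroblast markers, 79.9 to 115 and 78.5 to 91.1 for melanocyte markers, and 108 to 130 and 112 to 123 for endothelial markers. For immune markers, CD14 included, they were 391 to 451 and 449 to 478.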

How the data were processed

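The deposited signal intensity of a probe is the average over its beads, per the file headers, not background subtracted or normalized. The detection p-values, per the file headers, rank each signal among the negative controls of its array. The authors' deposited processed values lie on a log2-like scale, each array with a median of 7.46; the sources used here do not give the transform. Per the submitters' processing notes, GenomeStudio 2010.1 and lumi were used.

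Signals were background corrected with normexp in limma 3.58.1 (R 4.3.3), with an offset of 16, quantile normalized, and log2 was taken; quantile normalization holds the distribution of all probes fixed. Probes detected (p-value under 0.05) on 3 or more of the 6 arrays were kept, and the brightest kept probe with 1 symbol stood for its gene. The median probe signal was 121 to 141 and 36.7% to 40.9% of probes were detected per array; the 6 arrays limit the precision. The 2 groups were compared by limma with empirical Bayes and an intensity trend, 2-sided, with Benjamini-Hochberg adjustment across the 10406 genes. The fit was checked on simulated data with independent spread for each gene, which cannot cover a shift shared by many genes of an array. All 38 member symbols with a probe matched the gene table of GRCh38.p14 by Entrez identifier. The members, lists and tests were chosen with earlier results of these data known, and no p-value was adjusted over the members alone. All 40 members are named, and of each further list the up to 3 tested genes with the largest absolute difference. Members named as lost or gained under an alternative, markers and PGAM4 were named after their values were seen. Same-numbered samples of the groups had correlations of deviations of -0.05 to -0.03, and nothing in the labels pairs them. Alternatives numbered 17, among them each array left out in turn.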

Additional observations from a re-analysis of the deposited data

How the results depend on the processing

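Of the 17 alternatives, 11 used all arrays and 6 left out 1 array each. With no filter on dim probes 8 members, 4 enzymes, 3 other HIF targets and 1477 of 20046 genes were called. TPI1, PGK1, ENO2, NDRG1 and ANKRD37 lost their calls there. Without the intensity trend the counts of members, enzymes, other targets and genes were 4, 2, 2 and 1373. In the processed value table they were 15, 9, 5 and 2216, with GAPDH and LDHA called lower (limma, both adjusted p = 0.0486). With median scaling they were 16, 9, 5 and 2272. GPI, ALDOC, PKM and PFKFB3 gained calls there and LDHB lost its call. Tested singly, 3916 of 17871 kept probes were called. Leaving out 1 array gave 5 to 20 members, 2 to 13 enzymes, 2 to 5 other targets and 1218 to 2544 genes. The enzyme median was then -0.40 to -0.22 and that of the other targets -0.50 to -0.29. With median scaling the medians were -0.43 and -0.54, the median of all genes moved from -0.08 to -0.26, and the split of all genes went from 967 higher and 1257 lower to 456 and 1816. Relative to all genes the medians were -0.20 and -0.26 with quantile normalization and -0.18 and -0.28 with median scaling. The median of the other targets was -0.21 on uncorrected signals and -0.17 in the processed value table. It was -0.13 with no filter, where EGLN3 and MXI1 joined the set, and -0.051 on the mean of probes. Relative to all genes these medians were -0.16, -0.12, -0.11 and 0.009 in that order, so the last did not lie below all genes. Those of the enzymes were -0.22, -0.29, -0.25 and -0.21. BNIP3L turned to 0.23 on the mean of its probes. With the replicate number as a block 12 members and 1903 genes were called, and ANKRD37 alone of the members lost its call; the numbers do not pair the samples. The enzymes' median stayed below 0 under all 17 alternatives. Alternatives that changed only the test, such as the replicate block or leaving out the intensity trend, could not move it from -0.28. No cause of these shifts was tested. Differences of dim probes such as ENO2 and ANKRD37 are limited by signal over background and compressed by the offset.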
